A study of Mus musculus with 8 samples.

Results

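The 10 genes of the E2F transcription factor family and the retinoblastoma protein family studied here were followed in RNA sequencing libraries of mouse cells that the labels call pulmonary endothelial cells from lung. They were chosen by name from the 21878 genes of the deposited expression table and comprise E2f1, E2f2, E2f3, E2f4, E2f6, E2f7, E2f8, Rb1, Rbl1 and Rbl2. All 10 were found. By the labels 4 libraries had the treatment Ad-control and 4 the treatment Ad-KLK8, with no strain, age, dose or time and no meaning given for the prefix Ad. KLK8 is kallikrein-related peptidase 8, a secreted serine protease, and the series title names its inhibition in endotoxemic lung injury. The question asked of each gene was whether its transcript level differed between these treatments. Nothing in the labels ties replicates to separate cultures or animals, so a p-value here covers the spread among these samples, which may be technical.

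E2F proteins bind DNA, mostly as pairs with a DP partner, at the promoters of genes for DNA synthesis and cell division. The retinoblastoma, or pocket, proteins bind E2F factors and hold those promoters silent in resting cells, and phosphorylation of the pocket proteins by cyclin-dependent kinases releases them as a cell enters S phase. E2F1, E2F2 and E2F3 are classed as activators, E2F4 acts mainly as a repressor together with the pocket proteins p107 and p130, and E2F6 represses without a pocket protein, through Polycomb partners. E2F7 and E2F8 are atypical repressors that bind DNA without a DP partner and are themselves induced by E2F late in G1 and S phase. Several of these genes are therefore both regulators and targets of the same circuit.

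The library labels were first set against the expression values. Klk8 was 1135, 1403, 1232 and 1422 RPKM (reads scaled to gene length and library size) in Ad-control replicates 1 to 4 and 1159, 3263, 1354 and 1276 RPKM in Ad-KLK8 replicates 1 to 4, so the groups overlapped and each direction below rests on the labels alone (limma adjusted p = 0.327). Of 10 endothelial markers, 8 were under a mean of 0.5 RPKM, among them Cdh5, Pecam1 and Cldn5. The list summed to 5.93 to 7.21 RPKM per Ad-control library and 4.70 to 6.32 RPKM per Ad-KLK8 library. Of the 2 tested, Kdr was lower in Ad-KLK8, at means of 1.43 and 0.622 RPKM (adjusted p = 0.000667), and Egfl7 did not pass (0.926). The 8 fibroblast markers summed to 1623 to 1846 and 3520 to 3632 RPKM, with 7 higher and 1, Thy1, lower in Ad-KLK8. The 6 mesothelial markers summed to 167.9 to 219.6 and 554.4 to 607.9 RPKM, with 5 higher and 1, Krt19, lower. The 6 lung epithelial markers summed to 0.285 to 3.78 and 0.183 to 2.35 RPKM, with Scgb1a1 at 0 in every library, and the 6 leukocyte markers to 23.3 to 43.3 and 14.2 to 17.3 RPKM, with Ptprc, Cd3e and Cd79a under a mean of 0.5 RPKM and 2, Cd68 and Adgre1, lower in Ad-KLK8 (adjusted p = 7.53e-05 and 0.0204). The fibroblast, mesothelial and leukocyte markers and Kdr thus moved with the groups and so with every difference below. Their part in those differences was not tested. The library labelled Ad-KLK8 replicate 2 stood apart from the other 3 of its group. Its chi-square per degree of freedom against them was 18.0 to 19.6, beside 2.12 to 2.63 among those 3. In Ad-control, replicates 1 and 3 were closest (2.45), and all other pairs lay at 6.32 to 10.5. Without Ad-KLK8 replicate 2, 9 of the 10 E2F and pocket protein genes again passed as lower and 1 as higher. In that fit 6304 genes of the whole table passed as lower and 3093 as higher.

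In the Ad-KLK8 libraries 9 of the 10 genes were lower and 1, Rbl2, was higher (limma on log2(RPKM + 1), adjusted p under 0.05). The share of all 11998 genes tested that passed was 77.7%, with 52% lower and 25.7% higher, so that passing the test was common in the table as a whole. Counts of 2-fold changes, here and below, take a change of at least 1 in log2(RPKM + 1), which understates changes of low genes. Folds of single genes are ratios of group means. By that count at least 2-fold falls were found for 7 of the 10 genes, against 9.85% of all genes tested. The median change was −1.21 on the log2 scale for the 10 genes and −0.19 for all genes tested. Median-of-ratios scaling, which sets the typical gene to no change, raised the median of all genes by 0.21 to 0.02. Under that scaling 7 genes were lower, 1 was higher and 2 (E2f3 and E2f4) did not pass, while 77.2% of all genes passed, 37.2% lower and 40% higher. Falls of 2-fold or more then numbered 5 of the 10 (6.54% of all genes) and rises of that size 1 (4.37%). All 10 genes passed the minimum of 0.5 RPKM, but E2f7 and E2f8 passed it only through their Ad-control level. In bulk RNA, fewer cells that express a gene and less of its RNA per cell cannot be told apart.

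**Figure D1:**
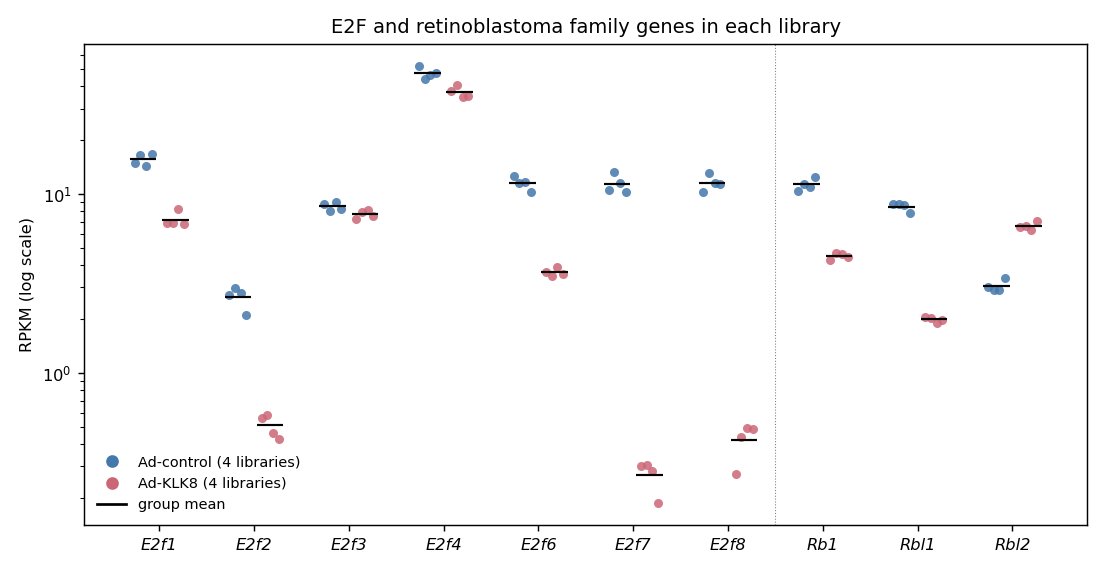
RPKM (log axis) of each of the 10 genes in the 4 Ad-control and 4 Ad-KLK8 libraries, with points for libraries and bars for group means. E2f7 and E2f8 show the widest gap between groups, E2f3 is the gene whose groups overlap, and Rbl2 is the gene with the higher values in Ad-KLK8.

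The atypical repressors had the largest falls of the family. E2f7 measured 10.6, 13.2, 11.6 and 10.3 RPKM in Ad-control replicates 1 to 4 and 0.301, 0.304, 0.283 and 0.187 RPKM in Ad-KLK8 replicates 1 to 4. Every Ad-KLK8 library lay far under the lowest Ad-control library, and the ratio of the group means was 42.4. The fall was −3.28 ± 0.08 on the log2(RPKM + 1) scale (SE, n = 4 per group, limma adjusted p = 6.74e-10). Behind these levels stood 1046 to 1310 reads per Ad-control library and 22 to 35 reads per Ad-KLK8 library. E2f8, its close relative, measured 10.2, 13.01, 11.5 and 11.4 RPKM in Ad-control and 0.273, 0.440, 0.490 and 0.485 RPKM in Ad-KLK8. The groups did not overlap and their means differed 27.3-fold, on 678 to 814 and 20 to 36 reads per library (log2 change −3.14 ± 0.08, SE, adjusted p = 1.01e-09). The 2 genes ranked 15 and 21 from the most lowered of the 11998 genes tested. Both passed the minimum of 0.5 RPKM only through their Ad-control level, so these ranks are descriptions only. Their summed level went from 20.8 to 26.2 RPKM per library to 0.574 to 0.773 RPKM.

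Because E2F7 and E2F8 are themselves E2F-induced, the promoters of both genes are shown for the E2F words they hold. Each covers 250 bases before to 50 after the RefSeq start of the gene, read 5′ to 3′ on the gene's strand from RefSeq on GRCm38.p6. Capitals mark, on either strand, 4 E2F core words and the cell cycle homology word. Of all 32851 RefSeq promoter windows of this length, the core word TTCCCGC was held by 4.6%, the core word TTCGCGC by 1.59%, the core word TTGCCGC by 1.81% and the core word TTGGCGC by 2.45%, and any of the 4 by 9.57%. The homology word TTTGAA was held by 17.9%. No marked words overlap in the windows shown, and the words were chosen after the sequences were seen.
E2f7 (chr10:110745189-110745488, plus strand): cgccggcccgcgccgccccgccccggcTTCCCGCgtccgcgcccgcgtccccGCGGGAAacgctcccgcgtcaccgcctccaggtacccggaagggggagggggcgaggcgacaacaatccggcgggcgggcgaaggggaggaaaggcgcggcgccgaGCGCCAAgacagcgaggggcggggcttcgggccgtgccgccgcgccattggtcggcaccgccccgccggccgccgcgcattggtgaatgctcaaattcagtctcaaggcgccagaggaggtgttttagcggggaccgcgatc
E2f8 (chr7:48881547-48881846, minus strand): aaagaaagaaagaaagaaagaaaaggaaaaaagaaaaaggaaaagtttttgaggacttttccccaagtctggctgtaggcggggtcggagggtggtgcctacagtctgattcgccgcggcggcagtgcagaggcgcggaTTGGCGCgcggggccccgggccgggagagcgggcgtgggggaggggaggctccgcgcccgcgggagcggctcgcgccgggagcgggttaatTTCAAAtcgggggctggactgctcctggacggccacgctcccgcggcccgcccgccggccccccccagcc
The E2f7 window held TTCCCGC 223 bases before the start, the same word on the opposite strand 198 bases before it, and TTGGCGC on the opposite strand 92 bases before it. The E2f8 window held TTGGCGC 111 bases before the start and TTTGAA on the opposite strand 20 bases before it. A match is a description of the letters and not a bound site.

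The activators differed among themselves. E2f1, the activator best known for driving both S-phase entry and cell death, measured 14.9, 16.4, 14.4 and 16.7 RPKM in Ad-control and 6.84, 6.84, 8.19 and 6.78 RPKM in Ad-KLK8. The groups did not overlap, and the mean fell 2.18-fold from 15.6 ± 1.15 to 7.16 ± 0.689 RPKM (SD, n = 4; log2 change −1.03 ± 0.07, SE, limma adjusted p = 2.68e-07). After median-of-ratios scaling the change of E2f1 was −0.80 (limma adjusted p = 2.55e-06). E2f2 was the lowest of the 3 activators in every library, at 2.72, 2.99, 2.80 and 2.09 RPKM in Ad-control and 0.562, 0.584, 0.463 and 0.427 RPKM in Ad-KLK8. Its mean fell 5.20-fold, on 170 to 236 and 40 to 52 reads per library. On the log2(RPKM + 1) scale, which understates changes of low genes, the change was −1.27 ± 0.09 (SE, adjusted p = 2.45e-07), and with a pseudocount of 0.1 it was −2.17 (adjusted p = 2.22e-07).

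E2f3 was close to level between the groups. It measured 8.81, 8.07, 8.97 and 8.27 RPKM in Ad-control and 7.26, 7.89, 8.13 and 7.51 RPKM in Ad-KLK8, and the groups overlapped because Ad-KLK8 replicate 3 exceeded Ad-control replicate 2. The change of −0.13 ± 0.05 (SE) passed narrowly with limma (adjusted p = 0.0407). It became 0.09 after median-of-ratios scaling (adjusted p = 0.118) and 0.12 after quantile normalization (adjusted p = 0.045), so no direction is given for this gene. The call was also lost without Ad-control replicate 1 (adjusted p = 0.0941) or 3 (0.106) and without Ad-KLK8 replicate 1 (0.113) or 4 (0.0962). In Ad-control E2f1 was above E2f3 in each library, whereas in Ad-KLK8 E2f3 exceeded E2f1 in replicates 1, 2 and 4 and lay under it in replicate 3. The order of the activators by mean RPKM was thus E2f1, E2f3, E2f2 in Ad-control, and in Ad-KLK8 the first 2 did not differ beyond their spread (7.16 ± 0.689 and 7.70 ± 0.386 RPKM, SD, n = 4).

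The promoters of E2f2 and E2f3 are shown because E2f2 fell with E2f7 and E2f8 and E2f3 did not. RefSeq lists a pair of starts for each gene, and the upstream window is given.
E2f2 (chr4:136172024-136172323, plus strand): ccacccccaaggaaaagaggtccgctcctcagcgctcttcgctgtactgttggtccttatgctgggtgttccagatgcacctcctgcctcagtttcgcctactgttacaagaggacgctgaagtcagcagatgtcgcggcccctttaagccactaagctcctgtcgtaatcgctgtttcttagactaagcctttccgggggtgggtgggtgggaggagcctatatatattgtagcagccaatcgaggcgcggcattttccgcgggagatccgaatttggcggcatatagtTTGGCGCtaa
E2f3 (chr13:29986014-29986313, minus strand): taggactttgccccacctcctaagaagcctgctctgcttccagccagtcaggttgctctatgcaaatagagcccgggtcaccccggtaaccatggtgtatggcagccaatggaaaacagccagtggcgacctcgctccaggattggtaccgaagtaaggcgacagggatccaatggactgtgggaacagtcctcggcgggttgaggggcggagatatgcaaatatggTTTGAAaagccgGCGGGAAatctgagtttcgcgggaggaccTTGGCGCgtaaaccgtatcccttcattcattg
The E2f2 window held TTGGCGC from base 41 after the start. The E2f3 window held TTTGAA 23 bases before the start, TTCCCGC on the opposite strand 11 bases before it and TTGGCGC from base 19 after it. Core words thus stood in the upstream window of the gene that fell 5.20-fold and in that of the gene with no settled direction. The second windows held no core word.

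E2f4 was the most abundant of the 7 E2F genes in every library. It measured 52.0, 43.8, 46.5 and 47.4 RPKM in Ad-control and 37.7, 40.6, 34.9 and 35.1 RPKM in Ad-KLK8. The groups did not overlap and the mean fell 1.28-fold (log2 change −0.35 ± 0.06, SE, limma adjusted p = 0.000442), but after median-of-ratios scaling the change was −0.11 and did not pass (adjusted p = 0.125). E2f6, the Polycomb-linked repressor, measured 12.7, 11.5, 11.6 and 10.2 RPKM in Ad-control and 3.66, 3.48, 3.92 and 3.58 RPKM in Ad-KLK8. Its groups were well apart, with a 3.15-fold fall of the mean (log2 change −1.42 ± 0.06, SE, adjusted p = 1.58e-08). The summed RPKM of the 7 E2F genes was 106.4 to 111.8 per Ad-control library and 54.0 to 60.1 per Ad-KLK8 library. E2f4 made up 40.2% to 46.5% of that sum in Ad-control and 61.9% to 67.5% in Ad-KLK8. The atypical pair made up 18.6% to 24.1% and 1.01% to 1.37%, and the activators together 23.6% to 25.5% and 25.5% to 29.8%. These shares are descriptions of transcript levels per length.

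**Figure D2:**
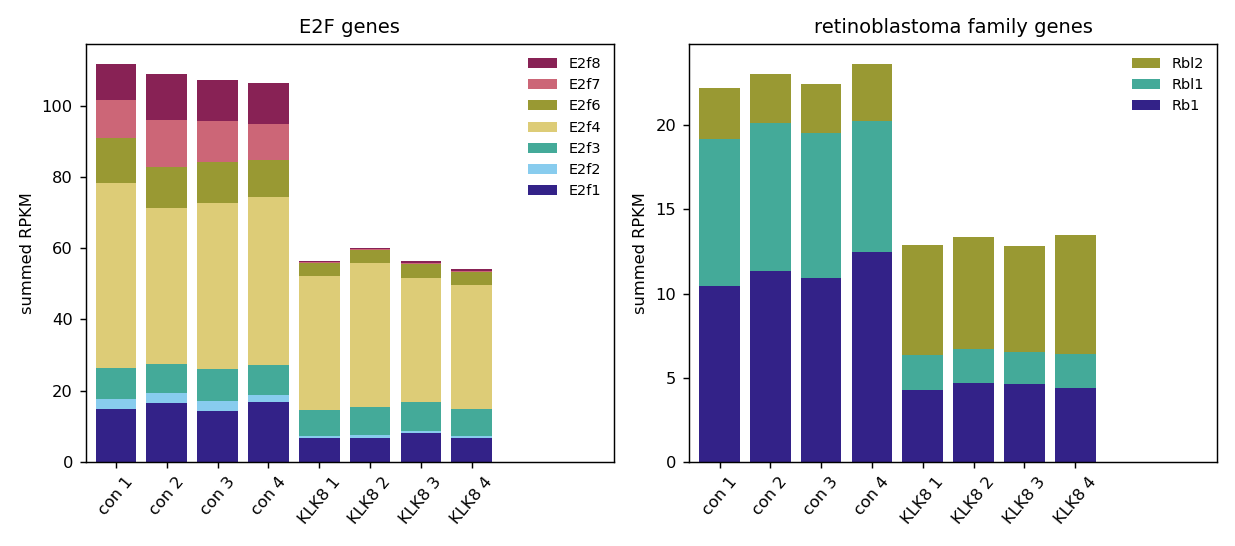
Summed RPKM of the 7 E2F genes (left) and the 3 retinoblastoma family genes (right), stacked by gene for each of the 8 libraries. E2f4 is the largest segment of every E2F bar, the E2f7 and E2f8 segments together are at most 1.37% of the bar in Ad-KLK8, and Rbl2 becomes the largest pocket protein segment there.

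The 3 pocket protein genes did not move together. Rb1, which encodes the retinoblastoma tumour suppressor, measured 10.4, 11.4, 10.9 and 12.5 RPKM in Ad-control and 4.29, 4.70, 4.62 and 4.42 RPKM in Ad-KLK8. The groups did not overlap, with a 2.51-fold fall of the mean (log2 change −1.16 ± 0.06, SE, limma adjusted p = 3.45e-08). After median-of-ratios scaling the change of Rb1 was −0.94 (limma adjusted p = 2.21e-07). Rbl1, which encodes p107 and is an E2F target expressed mainly in cycling cells, measured 8.77, 8.77, 8.62 and 7.79 RPKM in Ad-control and 2.06, 2.03, 1.91 and 1.98 RPKM in Ad-KLK8. Its mean fell 4.26-fold without overlap (log2 change −1.66 ± 0.05, SE, adjusted p = 2.45e-09). Rbl2, which encodes p130, the pocket protein most abundant in quiescent cells, measured 3.01, 2.91, 2.89 and 3.38 RPKM in Ad-control and 6.52, 6.61, 6.27 and 7.09 RPKM in Ad-KLK8. Every Ad-KLK8 library exceeded every Ad-control library, and the mean rose 2.17-fold (log2 change 0.91 ± 0.06, SE, adjusted p = 1.74e-07). The groups did not overlap for 9 of the 10 genes, against 72.2% of all genes tested. For 8 of the 10 they did not overlap and Ad-KLK8 was lower, against 49.1%.

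The order of the pocket protein genes by RPKM changed between the groups. In each Ad-control library it was Rb1, Rbl1, Rbl2, and in each Ad-KLK8 library it was Rbl2, Rb1, Rbl1. The ratio of Rbl1 to Rbl2 was 2.91, 3.02, 2.98 and 2.31 in Ad-control and 0.315, 0.307, 0.304 and 0.280 in Ad-KLK8. Rbl2 made up 12.6% to 14.3% of the summed pocket protein RPKM in Ad-control and 49.0% to 52.5% in Ad-KLK8, while the sum itself went from 22.2 to 23.6 RPKM to 12.8 to 13.5 RPKM. In GENCODE M21, exons of Rbl2 overlap those of Aktip over 9.17% of their bases and those of Rb1 overlap Rcbtb2 and Lpar6 over 8.11% and 6.78%, all on the opposite strand. No source used here says whether the authors' counting used strand, so part of these reads could belong to the partner gene. Aktip was lower than Rbl2 in level, at 2.17 ± 0.184 and 2.67 ± 0.0224 RPKM (SD, n = 4), and rose by 0.21 on the log2 scale (adjusted p = 0.00656). Rcbtb2 was 4.36 ± 0.220 and 5.20 ± 0.324 RPKM and rose by 0.21 (adjusted p = 0.00664). Lpar6 was 5.99 ± 0.291 and 4.31 ± 0.651 RPKM, with a log2 change of −0.40 (adjusted p = 0.00118). In Ad-KLK8 both stood near the level of Rb1. Noncoding genes on the opposite strand share 11.2% of the exon bases of E2f8, 0.955% of those of E2f7 and 11.8% of those of Rbl2.

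The promoters of Rbl1 and Rbl2 are shown because these relatives moved in opposite directions.
Rbl1 (chr2:157204485-157204784, minus strand): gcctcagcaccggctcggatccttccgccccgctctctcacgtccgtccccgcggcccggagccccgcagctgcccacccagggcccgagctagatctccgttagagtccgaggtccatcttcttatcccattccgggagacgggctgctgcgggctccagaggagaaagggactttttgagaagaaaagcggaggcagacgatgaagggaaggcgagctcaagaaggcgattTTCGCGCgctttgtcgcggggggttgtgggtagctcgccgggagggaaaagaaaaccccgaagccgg
Rbl2 (chr8:91069807-91070106, plus strand): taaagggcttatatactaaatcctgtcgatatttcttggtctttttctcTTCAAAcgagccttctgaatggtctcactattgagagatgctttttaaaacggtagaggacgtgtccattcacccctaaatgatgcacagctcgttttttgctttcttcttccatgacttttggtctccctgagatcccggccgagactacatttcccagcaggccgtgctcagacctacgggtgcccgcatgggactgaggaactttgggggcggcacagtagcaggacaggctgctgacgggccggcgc
The Rbl1 window held TTCGCGC 17 bases before the start. The Rbl2 window held no core word and held TTTGAA on the opposite strand 201 bases before the start. RefSeq windows were matched for 8 of the 10 genes, E2f4 and Rb1 being named only, and core words stood in 5 of their 10 windows. The windows of E2f1 and E2f6, which fell 2.18-fold and 3.15-fold, held no core word and are not shown. The E2f1 window may not be its main promoter, since 188 of its 300 bases are coding sequence of E2f1 in GENCODE M21 and its RefSeq start lies 466 bases downstream of the gene's start there. Among all tested genes with a window, 59.8% of 1894 genes with a core word and 50.1% of 7737 without one were lower in Ad-KLK8. Those lower by at least 2-fold were 14.7% and 8.45%. For TTTGAA, 53.1% of 1359 genes with the word and 51.8% of 8272 without it were lower, and 12.6% and 9.21% by at least 2-fold. These shares are descriptions, since genes with several starts have more windows in which a word can occur and base composition was not matched.

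**Figure D3:**
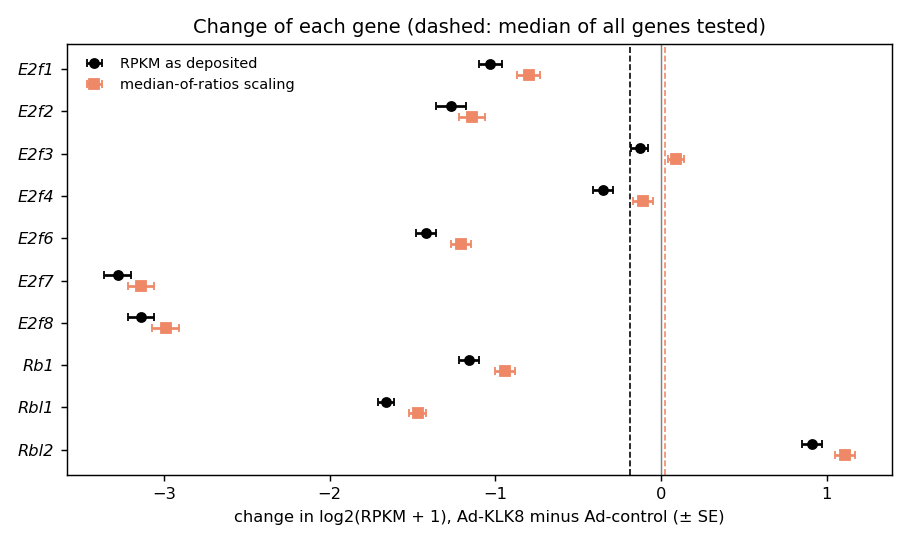
Change in log2(RPKM + 1), Ad-KLK8 minus Ad-control, of each gene with its SE (n = 4 per group), for RPKM as deposited (circles) and after median-of-ratios scaling (squares), with dashed lines at the median of all genes tested. E2f3 lies on either side of 0 under the 2 scalings and E2f4 moves from −0.35 to −0.11, while the other 8 genes keep their side.

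Other components of the E2F circuit were followed in 11 lists holding 109 genes. These lists, like the 10 genes, were chosen with earlier results of these data known, so their counts are descriptions. Of the DP partners, Tfdp1, the main dimer partner, fell from 54.5 ± 1.95 to 27.6 ± 2.12 RPKM (SD, n = 4; log2 change −0.96, adjusted p = 6.88e-08). Tfdp2 was 6.94 ± 0.613 and 7.90 ± 0.231 RPKM, with a rise of 0.17 that passed narrowly (adjusted p = 0.0258) and was lost without Ad-control replicate 2 (0.0704) or 4 (0.0642) or Ad-KLK8 replicate 2 (0.0594), after rescaling to TPM (0.0818) and with similar libraries averaged (0.0543). After median-of-ratios scaling its rise was 0.39 (adjusted p = 9.59e-05). The MuvB core and its partners form, with p107 or p130 and E2F4, the DREAM repressor of cell cycle genes, and with B-MYB and FOXM1 their activator. Of 8 such genes 7 fell, against 52% of all genes tested. On the log2(RPKM + 1) scale 4 fell by 2-fold or more, against 9.85% (2 after median-of-ratios scaling, against 6.54%). Mybl2, which encodes B-MYB, fell from 6.27 ± 0.637 to 0.491 ± 0.0716 RPKM (adjusted p = 2.24e-09), and the DNA-binding core subunit gene Lin54 from 6.13 ± 0.642 to 2.004 ± 0.1 RPKM. Lin9, another core subunit gene, fell from 3.93 ± 0.299 to 1.24 ± 0.154 RPKM, and Dyrk1a, whose kinase promotes DREAM assembly, from 13.99 ± 0.993 to 7.95 ± 0.212 RPKM. Mybl2 passed the minimum of 0.5 RPKM only through its Ad-control level. The exception was Lin37, named after its values were seen, at 8.88 ± 1.29 and 9.41 ± 0.898 RPKM (adjusted p = 0.46, and 0.0167 for a rise of 0.30 after median-of-ratios scaling).

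Cyclins and kinases that phosphorylate the pocket proteins did not all move together. All 5 genes of the E- and A-type cyclin list fell at least 2-fold, against 9.85% of all genes tested, with a median of −2.02 on the log2 scale. Ccne1, which encodes the CDK2 partner cyclin E1, fell from 52.1 ± 4.55 to 4.86 ± 0.746 RPKM (SD, n = 4, limma adjusted p = 1.2e-09) and Ccne2, which passed the minimum only through its Ad-control level, had a log2 change of −3.99. Their kinase Cdk2 fell from 28.5 ± 1.64 to 7.61 ± 0.888 RPKM, and Cdc25a, the phosphatase that activates it, from 15.9 ± 0.528 to 4.87 ± 0.451 RPKM. Of the 5 D-type cyclin and kinase genes 3 fell and 2 rose, against 52% and 25.7% of all genes tested. Ccnd1 fell from 45.6 ± 5.08 to 15.5 ± 0.547 RPKM (adjusted p = 1.82e-08). Cdk6 and Ccnd2 rose from 7.71 ± 0.374 to 12.3 ± 0.528 RPKM and from 74.0 ± 6.16 to 94.8 ± 7.81 RPKM (adjusted p = 1.06e-06 and 0.000942). Cdk4 was 151.9 ± 10.5 and 124.7 ± 9.47 RPKM, a fall that did not pass after median-of-ratios scaling (adjusted p = 0.577). The fall of Ccnd3, named after its values were seen, was also lost there (adjusted p = 0.369). That scaling left 1 fall and 2 rises in the list, against 37.2% and 40% of all genes.

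CDK inhibitors, which keep the pocket proteins unphosphorylated, moved in both directions. Of 7 genes 6 fell and 1 rose, against 52% and 25.7% of all genes tested, and 1 of the 7, Cdkn1c, fell by 2-fold or more, against 9.85%. With the median-of-ratios factors 4 were lower and 1 was higher, against 37.2% and 40% of all genes. The list median was −0.65 (log2), and −0.45 after that scaling. Cdkn1c, which encodes p57, fell from 7.74 ± 0.582 to 1.995 ± 0.472 RPKM (SD, n = 4, limma adjusted p = 2.39e-07), Cdkn1b, which encodes p27, from 26.0 ± 2.09 to 15.1 ± 0.749 RPKM, and Cdkn2d, which encodes the INK4 protein p19, from 12.3 ± 1.77 to 6.53 ± 0.443 RPKM. Cdkn2b, which encodes the CDK4 and CDK6 inhibitor p15, rose from 63.9 ± 3.61 to 104.2 ± 4.25 RPKM (adjusted p = 3.34e-07). Of 4 genes for turnover of E2F and pocket proteins 3 fell, against 52% of all genes tested. Ccnf, which encodes cyclin F, a ubiquitin ligase subunit acting on E2F proteins, fell from 18.6 ± 3.41 to 1.34 ± 0.216 RPKM (adjusted p = 4.93e-09), and Skp2, the F-box gene of another ubiquitin ligase, from 8.64 ± 0.809 to 2.08 ± 0.131 RPKM. Mdm2, the ubiquitin ligase gene best known for acting on p53, fell from 81.1 ± 3.74 to 45.0 ± 2.27 RPKM. Fzr1, an activator of the anaphase-promoting complex in G1, was 15.2 ± 1.17 and 14.9 ± 1.06 RPKM (adjusted p = 0.765, and 0.01 for a rise of 0.21 after median-of-ratios scaling).

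Of 20 chromatin partners of E2F6 and the pocket proteins 15 fell, against 52% of all genes tested. On the log2(RPKM + 1) scale 1 fell by 2-fold or more, against 9.85%. After median-of-ratios scaling 11 of the 20 were lower, against 37.2% of all genes. Of 10 Polycomb partners of E2F6, 8 fell and 1 rose. None did so by 2-fold on the log2(RPKM + 1) scale, although the mean of Rybp fell 2.025-fold. The list median was −0.38 (log2). Median-of-ratios scaling moved that median to −0.15, beside 0.02 for all genes, and left 6 genes lower and 2 higher. Wdr5 fell from 19.8 ± 0.490 to 12.2 ± 0.490 RPKM (SD, n = 4, limma adjusted p = 1.65e-07), Rybp from 7.70 ± 0.424 to 3.80 ± 0.392 RPKM and L3mbtl2 from 6.59 ± 0.277 to 3.60 ± 0.342 RPKM. Yaf2 fell from 30.2 ± 0.830 to 22.7 ± 0.796 RPKM, whereas Ring1, a ubiquitin ligase subunit, rose from 5.52 ± 0.479 to 7.90 ± 0.675 RPKM. Max, named after its values were seen, did not pass (31.1 ± 0.909 and 28.9 ± 2.04 RPKM, adjusted p = 0.0767). Of 10 chromatin regulators that bind pocket proteins 7 fell and 2 rose (5 and 3 after median-of-ratios scaling). Suv39h1, a histone H3 methyltransferase, fell from 5.15 ± 0.323 to 1.63 ± 0.120 RPKM (adjusted p = 2.98e-08), the deacetylase gene Hdac2 from 50.5 ± 3.05 to 33.0 ± 3.35 RPKM and Arid4a from 7.24 ± 0.456 to 4.82 ± 0.233 RPKM. Smarca2, the ATPase BRM of SWI/SNF complexes, rose from 4.001 ± 0.239 to 7.16 ± 0.514 RPKM, and Suv420h1, a histone H4 methyltransferase, from 3.09 ± 0.168 to 3.80 ± 0.140 RPKM. Kdm5a, named after its values were seen, did not pass (adjusted p = 0.112).

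Known E2F target genes were lower almost throughout. All 30 S-phase targets fell, against 52% of all genes tested, and the list median was −2.25 (log2). On the log2(RPKM + 1) scale 28 fell by 2-fold or more, against 9.85% (27 after median-of-ratios scaling, against 6.54%). Of the 30, 4 (Cdc6, Orc1, Mcm10 and Chek1, named after their values were seen) passed the minimum only through their Ad-control level. Among the targets Pcna, Mcm6, Mcm3 and Uhrf1 had the smallest adjusted p, with log2 changes of −2.80, −2.43, −3.49 and −3.19. Of 19 tested G2/M targets of MuvB complexes 18 fell, against 52% of all genes tested, and the list median was −1.20. On the log2(RPKM + 1) scale 12 fell by 2-fold or more, against 9.85%. Nek2, a centrosomal kinase gene, fell from 3.64 ± 0.292 to 0.789 ± 0.188 RPKM (SD, n = 4, limma adjusted p = 1.16e-07), and Cdk1, Mki67 and Top2a had log2 changes of −1.75, −1.89 and −1.82. Cdc25c, named after its values were seen, passed the minimum only through its Ad-control level. Ccnb2 did not pass (adjusted p = 0.583) and Cenpf, at 0.456 ± 0.119 and 0.283 ± 0.0549 RPKM, was under the minimum. Of 7 tested death genes reported as E2F1 targets 6 fell, against 52% of all genes tested. Their median change was −0.76, beside −0.19 for all genes tested. On the log2(RPKM + 1) scale 2 of the 7 fell by 2-fold or more, against 9.85%. Under median-of-ratios scaling 5 were lower, 1 of them by 2-fold or more, against 37.2% and 6.54% of all genes. Bcl2l11, a BH3-only gene, fell from 5.18 ± 0.209 to 2.66 ± 0.164 RPKM (adjusted p = 4.67e-07), while Pmaip1 and Bbc3 had log2 changes of −2.09 and −1.17. Casp9 did not pass (adjusted p = 0.172) and Trp73 was under the minimum, with 145 reads summed over Ad-control and 10 over Ad-KLK8.

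**Figure D4:**
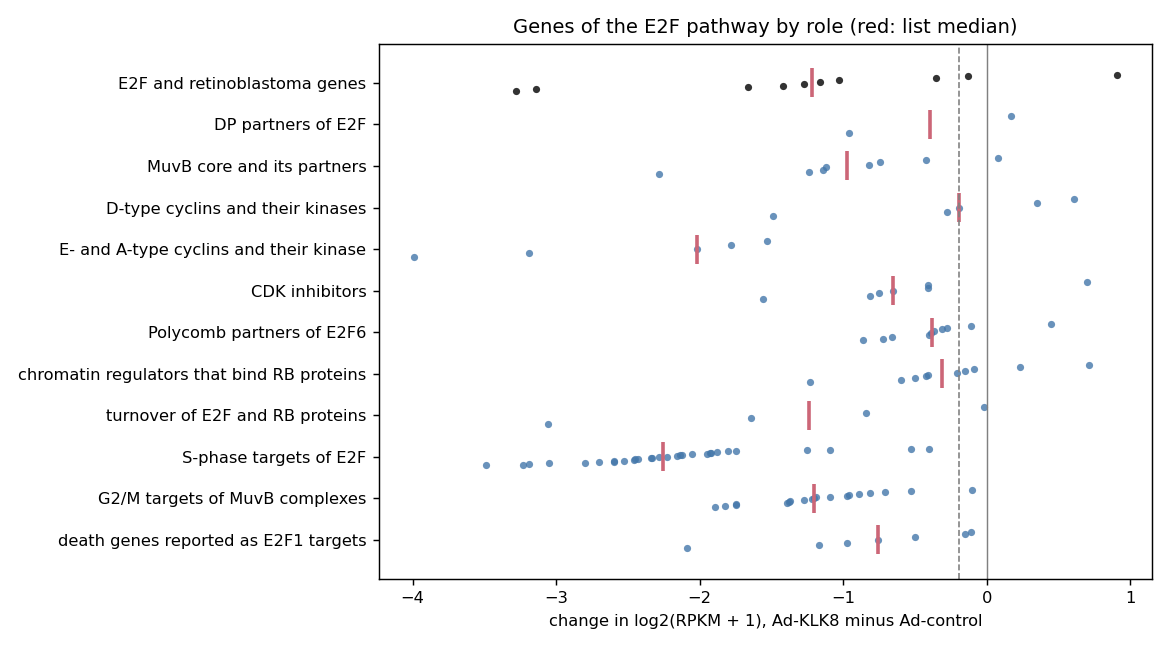
Change in log2(RPKM + 1), Ad-KLK8 minus Ad-control, of each tested gene by list, with a red bar at the list median and a dashed line at −0.19, the median of all genes tested. The S-phase targets and the E- and A-type cyclin list lie lowest, with medians of −2.25 and −2.02, and the D-type list straddles 0.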

How the data were processed

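The authors deposited 1 table of RPKM values for 21878 genes and 8 libraries, made from total RNA with a stranded mRNA kit per the labels' protocols. The tools named per the submitters' processing notes are HISAT2, Cufflinks, Trimmomatic, SAMtools and DESeq, without roles or versions, and the build named is GRCh38, although symbols and identifiers are mouse ones. The build of the alignment is therefore unclear, and the coordinates printed are those of RefSeq promoters on GRCm38.p6. Deposited values were whole multiples of 1 read (tolerance 0.001 read), which gave 15758696 to 16747740 reads per Ad-control library and 17775433 to 18692134 per Ad-KLK8 library. A factor common to all counts of a gene cannot be seen by this recovery, so that a few genes may be undercounted. Tests were made in R 4.3.3 with limma 3.58.1 (two-sided, eBayes with trend, group as the only term) on log2(RPKM + 1), over the 11998 genes whose mean reached 0.5 RPKM, adjusted after Benjamini and Hochberg at 0.05. Median-of-ratios scaling factors came from genes above 0 in every library.

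Recovery and fit were tested on simulated data. Alternatives were other pseudocounts, filters and scalings, a fit without trend, the replicate number as a block, each library left out, and voom on the recovered reads. A fit with similar libraries averaged was added after seeing the data. It averaged Ad-control replicates 1 and 3, and Ad-KLK8 replicates 1, 3 and 4. The members and lists were chosen with earlier results of these data known. Named genes are the 10 members, up to 4 genes per list with the smallest adjusted p, and genes that passed against the direction of their list. One gene so chosen is not reported here. Suv420h1 and Suv420h2 are listed in the table under those older symbols. Python 3.11.15 was used for tables.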

Additional observations from a re-analysis of the deposited data

Results flagged for a closer look

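In 2 of 20 groups of 4 libraries checked over the 10 genes, 1 library lay apart from the other 3, where chance gives about 1 in 20. E2f1 was 8.19 RPKM in Ad-KLK8 replicate 3, above 6.78 to 6.84 RPKM in the other 3 libraries of its group. Rbl1 was 7.79 RPKM in Ad-control replicate 4, under 8.62 to 8.77 RPKM in the other 3. Both genes kept their direction and passed with limma in all 20 alternative settings.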

How the results depend on the processing

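Over 20 alternative settings, 8 of the 10 E2F and pocket protein genes passed with the same direction each time, the exceptions being E2f3 and E2f4. The share of all genes that did so was not counted. Of all genes tested 77.7% passed in the main fit and 77.2% after median-of-ratios scaling. E2f3 was 0.09 after median-of-ratios and upper-quartile scaling and 0.12 after quantile normalization, where it passed as higher, which made 2 higher genes. E2f4 did not pass after median-of-ratios or upper-quartile scaling (−0.11 in both). Fzr1 was 0.21, 0.21 and 0.20 under the same 3 scalings. The number of higher genes in the whole table went from 3079 to 4797, 4791 and 4917 under these scalings, and that of higher genes in the related lists from 7 to 11 under each. By construction these scalings remove the shift of the typical gene. With similar libraries averaged, E2f3 did not pass (adjusted p = 0.231). Replicate numbers are shared between the groups but did not pair the samples: deviations of same-numbered libraries from their group means correlated at −0.0905 to 0.0106. With the replicate number as a block, 3007 genes were higher and 6163 lower, and of the 10 genes 1 was higher and 8 lower, E2f3 being lost (adjusted p = 0.062). Depth limits E2f7 and E2f8 most, with 20 to 36 reads per Ad-KLK8 library (22 to 35 for E2f7). Over the settings the log2 change of E2f7 ranged from −5.41 (voom on recovered reads) to −3.04 and that of E2f8 from −4.78 to −2.87.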
